A study of Mus musculus with 6 samples.

Results

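The collagens of the interstitial matrix were compared between wild-type and *Yap* mutant mouse lungs at 12.5 *dpc*. The members are all loci of the deposited table whose gene symbol has the form of a collagen alpha chain, without the chains of types IV, VII, XV and XVIII, which belong to basement membranes and their anchoring zones. The rule found 35 loci among 24402, each with 1 gene symbol. They comprise 11 fibrillar chains, 9 chains of the FACIT class (fibril-associated collagens with interrupted triple helices), 6 chains of beaded filaments, 3 of networks, 4 transmembrane chains and 2 others.

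RNA came from whole lungs of C57BL/6 embryos, with 3 libraries from wild-type embryos and 3 from *Yap*-flox/flox; *Shh*-Cre/+ littermates, called *Yap* mutants here. The Cre recombinase is produced from the *Shh* locus, so these mice lack *Yap* in the lung epithelium, keep it in the mesenchyme and carry 1 altered copy of *Shh*. The deposited table gives 1 value per genotype in FPKM (fragments normalised to transcript length and library size). How far single libraries varied and how deeply each was sequenced cannot be read from these values. The authors' own comparison over the libraries, deposited beside the values, was not used here, so the differences below are given as sizes without a test or a p-value. A locus with a mean of at least 1 FPKM over both genotypes was counted as lower or higher when its values were at least 1.5-fold apart, a log2 ratio of 0.58 or more in size. In whole-lung RNA, fewer cells of a type and less RNA per cell cannot be told apart.

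*Yap1* itself was listed at 76.1 FPKM in wild-type and 65.6 FPKM in *Yap* mutant lungs. The lung markers *Nkx2-1*, *Sftpc*, *Tbx4* and *Foxf1* were present in both genotypes, at 28.4 FPKM or more. Of the 8 genes in the lung marker list, 3 were at least 1.5-fold lower and 3 at least 1.5-fold higher. Among the lower ones, *Shh* had 15.6 FPKM in wild-type and 2.31 FPKM in *Yap* mutant lungs, a log2 ratio of -2.76. Over the 12716 loci past the minimum, the log2 ratio of *Yap* mutant over wild type had a median of -0.01, with quartiles of -0.11 and 0.12. Of all loci past the minimum, 51.8% were lower in *Yap* mutant lungs. By 1.5-fold or more, 3.46% were lower and 4.61% higher. Marker lists of several cell types differed. All 10 epithelial genes were lower, with a median log2 ratio of -0.60, and 7 of 8 smooth muscle genes were lower, their summed level being 305.8 FPKM in wild-type and 162 FPKM in *Yap* mutant lungs. All 8 cardiac muscle genes were higher, at a summed 98.6 and 669 FPKM, as were 4 of 5 liver genes, at 8.49 and 40.6 FPKM. In the mesenchyme list, 4 of 13 loci were at least 1.5-fold lower, among them *Foxf1* at 83.5 and 41.6 FPKM and *Gli1* with a log2 ratio of -1.03, and *Fgf10* was higher with a log2 ratio of 1.35, while the median was 0.06. None (0) of the 6 endothelial and of the 4 mesothelial loci past the minimum was 1.5-fold apart. The part of these differences in the collagen values was not tested.

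A collagen is built from 3 alpha chains that wind into a triple helix, which requires a glycine at every turn of a repeating tripeptide. Fibrillar collagens, after trimming of their ends, pack into the cables that give connective tissue its tensile strength. FACIT collagens sit on the surface of these fibrils, type VI forms beaded microfilaments near cells, and transmembrane collagens anchor in the plasma membrane. In the embryonic lung, mesenchymal cells make most interstitial collagen, and the cartilage of the trachea and main bronchi relies on fibrils of types II, IX and XI.

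The repeat is visible in the genes. Glycine is encoded by GGN codons, and in fibrillar genes many exons are 54 bases long, a whole number of tripeptides. The first such coding exon inside the longest repeat is printed 5′ to 3′ for the chains described most closely below, with the repeating GGN codons in capitals (GENCODE M21 transcripts on GRCm38). *Col1a1* represents the abundant fibrils, *Col2a1* and the type IX chains the cartilage fibril, *Col27a1* and *Col24a1* the fibrillar genes with the largest differences, and *Col6a1* and *Col6a2* the beaded filaments.
Col1a1, chr11:94939904-94939957, plus strand: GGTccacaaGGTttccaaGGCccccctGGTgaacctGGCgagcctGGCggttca
Col2a1, chr15:97996489-97996542, minus strand: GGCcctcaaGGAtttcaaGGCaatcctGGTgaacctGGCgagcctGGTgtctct
Col27a1, chr4:63245069-63245122, plus strand: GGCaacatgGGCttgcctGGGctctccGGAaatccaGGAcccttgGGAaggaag
Col24a1, chr3:145328731-145328784, plus strand: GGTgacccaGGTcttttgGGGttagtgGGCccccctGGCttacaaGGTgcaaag
Col9a1, chr1:24210373-24210426, plus strand: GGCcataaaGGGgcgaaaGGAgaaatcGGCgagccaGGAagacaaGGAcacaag
Col9a2, chr4:121045141-121045194, plus strand: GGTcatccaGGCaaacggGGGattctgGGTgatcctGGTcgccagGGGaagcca
Col9a3, chr2:180605727-180605780, plus strand: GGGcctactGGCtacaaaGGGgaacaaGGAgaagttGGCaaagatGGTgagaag
Col6a1, chr10:76719623-76719676, minus strand: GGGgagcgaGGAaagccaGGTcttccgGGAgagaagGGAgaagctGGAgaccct
Col6a2, chr10:76611948-76612001, minus strand: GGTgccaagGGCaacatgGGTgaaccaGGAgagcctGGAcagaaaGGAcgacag

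Each of these exons holds 6 GGN codons in register. The exons of *Col1a1* and *Col2a1* share 43 of 54 bases, those of *Col24a1* and *Col27a1* share 22 and those of *Col6a1* and *Col6a2* share 26. Part of each count was fixed by the choice of exons, as the GG letters of the 6 GGN codons match in every pair. The counts therefore do not measure how closely the genes are related. Each exon was chosen for its gene alone, as the first of 54 bases in the longest repeat, and the exons were not aligned. The exons of a pair need not correspond, as they are coding exon 9 in *Col6a1* and coding exon 5 in *Col6a2*.

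The length of the uninterrupted repeat sets the fibrillar class, with longest runs of 216 to 344 GGN codons, apart from the others. The other classes overlapped, as longest runs spanned 32 to 113 in FACIT genes and 37 to 87 in beaded filament genes. In 9 of the 11 fibrillar genes the longest run held between 337 and 344 GGN codons in register, while *Col24a1* and *Col27a1*, which form a subfamily of their own, had shorter runs of 216 and 217. The type IX chains and *Col22a1* each had a longest run of 113, *Col6a1* and *Col6a2* one of 87, and the other members at most 61. Exons of 54 bases numbered between 21 and 33 in fibrillar genes and 2 or 3 in the type VI genes, and the network genes, which have 2 coding exons each, had none of that length. All 35 members matched a GENCODE gene by symbol.

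**Figure D1:**
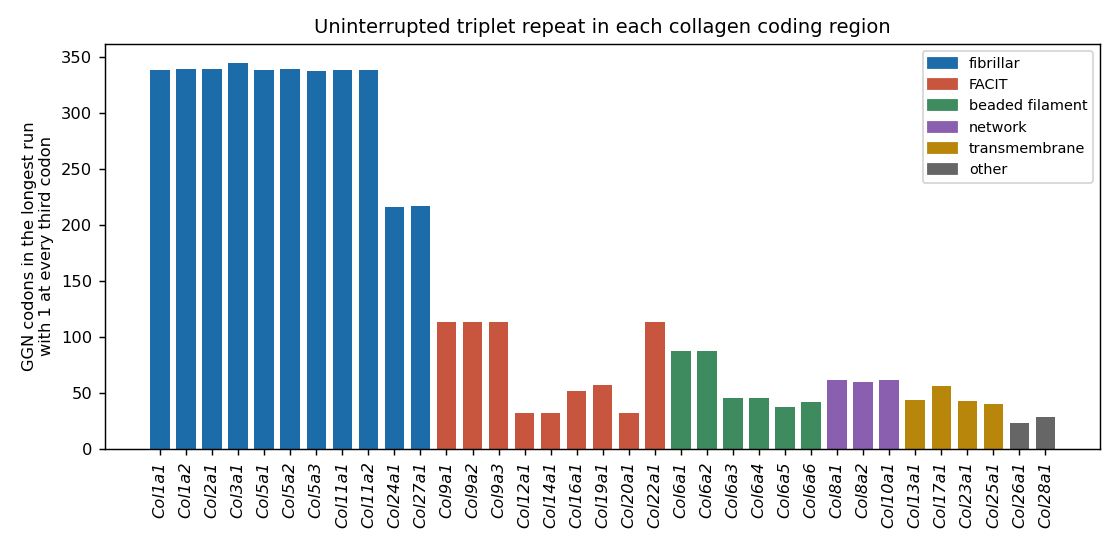
Number of GGN codons in the longest run with 1 such codon in each tripeptide, counted in the longest annotated coding region of each of the 35 members and coloured by collagen class. Fibrillar genes reach 337 to 344, apart from *Col24a1* (216) and *Col27a1* (217).

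Of the 35 members, 26 had a mean of at least 1 FPKM. Among these, 6 were at least 1.5-fold lower in *Yap* mutant lungs (23.1%), against 3.46% of all loci past the minimum, and 1 was at least 1.5-fold higher (3.85%), against 4.61% of all loci. The 6 lower genes were *Col22a1*, *Col27a1*, *Col9a1*, *Col25a1*, *Col9a3* and *Col14a1*, and the higher gene was *Col24a1*. Counting any difference, 19 of the 26 were lower in the mutants (51.8% of all loci were) and 7 were higher. The median log2 ratio was -0.34, beside -0.01 over all loci past the minimum. No member was 2-fold lower, and *Col24a1* was 2-fold higher.

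The summed level was nearly equal in both genotypes. All 35 members together came to 1491 FPKM in wild-type and 1435 FPKM in *Yap* mutant lungs, which was 0.277% and 0.275% of the FPKM of all loci. The 5 most abundant members, which belong to types I, III and V, had log2 ratios between -0.04 and 0.11, whereas *Col6a2*, *Col6a1* and *Col2a1*, at ranks 6, 8 and 9 by wild-type level, had log2 ratios of -0.56, -0.50 and -0.51.

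**Figure D2:**
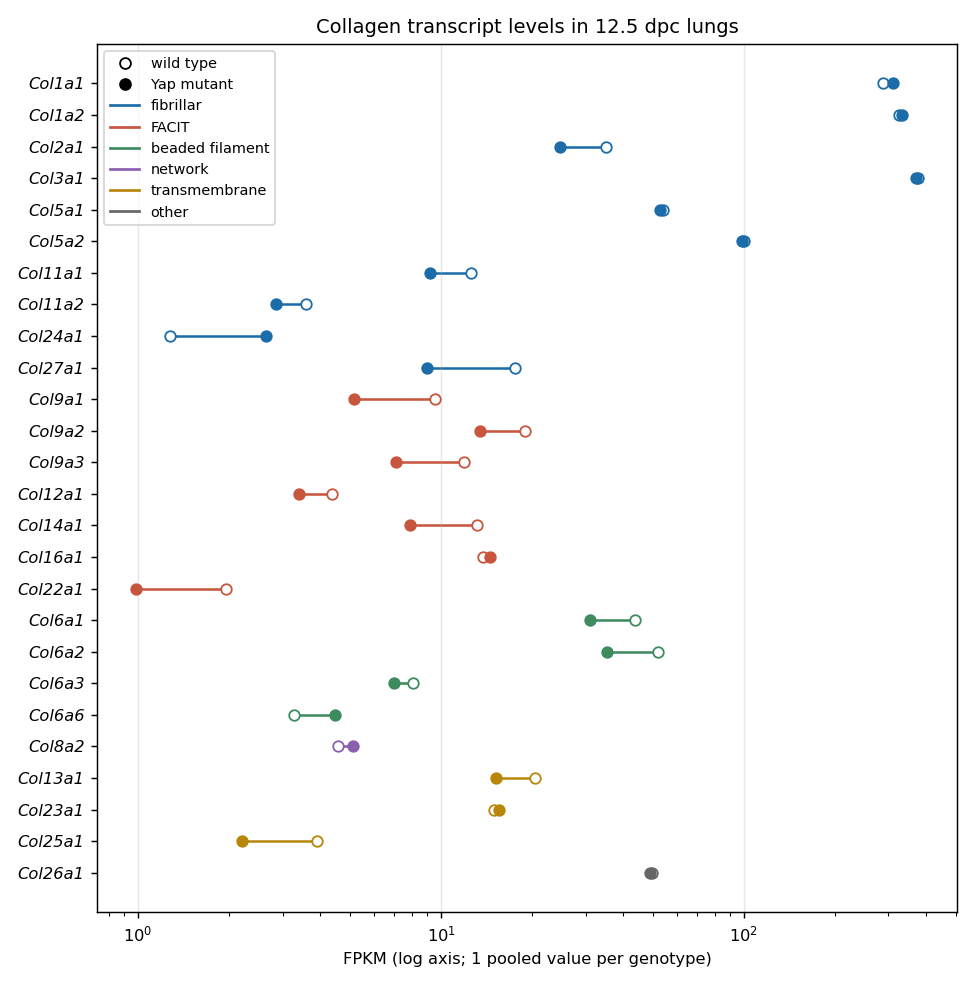
FPKM of the 26 collagen genes with a mean of at least 1 FPKM, on a log axis, with an open circle for the pooled wild-type value and a filled circle for the pooled *Yap* mutant value. The 4 most abundant genes lie at 98.2 FPKM or more with their circles almost touching, whereas the circles of *Col24a1*, *Col27a1* and *Col22a1* lie far apart.

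The fibrils of types I, III and V make up the bulk of connective tissue collagen, with type V placed inside the fibril where it limits the diameter. *Col1a1* (chromosome 11, 94936066 to 94953042) had 288 FPKM in wild-type and 311 FPKM in *Yap* mutant lungs, a log2 ratio of 0.11. *Col1a2* (chromosome 6, 4505697 to 4541543) had 325 and 334 FPKM, a log2 ratio of 0.04. *Col3a1* (chromosome 1, 45311478 to 45349706), whose homotrimers form fine fibrils in elastic organs, was the highest member, with 376 and 371 FPKM.

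The type V chains were as close. *Col5a1* had 54.1 and 52.7 FPKM, and *Col5a2* had 99.7 and 98.2 FPKM, so their log2 ratios were -0.04 and -0.02. *Col5a3* was low, at 0.116 and 0.149 FPKM. The 5 abundant chains of types I, III and V held 76.7% of the members' FPKM in wild-type and 81.3% in *Yap* mutant lungs, and their log2 ratios ranged from -0.04 to 0.11, within the quartiles of all loci.

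The chains of types I and V kept close proportions. For type I, a heterotrimer with more *Col1a1* than *Col1a2* product, the FPKM of *Col1a2* was 1.13 times that of *Col1a1* in wild-type and 1.07 times in *Yap* mutant lungs. For type V, *Col5a2* over *Col5a1* was 1.84 and 1.86. *Col3a1* and *Col5a2* lie 1.94 kb apart on chromosome 1 and had log2 ratios of -0.02 each.

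*Col3a1* is also 1 of 3 members whose promoter window holds the letters GGAATG or their reverse complement CATTCC, which the TEAD partners of YAP recognise, the others being *Col6a2* and *Col20a1*. Windows from 250 bases before to 50 after the start site, from RefSeq on GRCm38.p6, were found for 27 of the 35 members, and 14.7% of all 32851 such windows hold these letters on either strand. The window of *Col3a1* is shown because this gene is the most abundant member, with the match, which begins 168 bases before the start site, in capitals. Its level differed between genotypes by a log2 ratio of -0.02, and no binding was measured here.
Col3a1, chr1:45311288-45311587, plus strand: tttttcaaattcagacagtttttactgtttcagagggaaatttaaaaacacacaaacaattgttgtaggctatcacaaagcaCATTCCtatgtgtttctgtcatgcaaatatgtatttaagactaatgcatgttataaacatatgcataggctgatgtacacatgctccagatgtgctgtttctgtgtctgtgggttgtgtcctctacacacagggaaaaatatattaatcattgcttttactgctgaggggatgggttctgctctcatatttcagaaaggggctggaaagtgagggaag

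Chains of the cartilage fibril and of type XXVII were lower without exception. Type II is the main fibril of cartilage, type XI forms its core and type IX decorates its surface, and type XXVII is a fibrillar collagen of developing cartilage. All 7 chains of these 4 types had lower values in *Yap* mutant lungs, with log2 ratios from -0.96 to -0.33 and a median of -0.51, and 3 of the 7 were at least 1.5-fold lower. Of all loci past the minimum, 51.8% were lower and 3.46% at least 1.5-fold lower. This grouping was made after the values were seen. Their summed level was 109 FPKM in wild-type and 71.5 FPKM in *Yap* mutant lungs, or 7.33% and 4.98% of the members' FPKM. Without these 7 chains, the median log2 ratio over the other 19 members past the minimum was -0.023. As the 7 were grouped with their lower values known, leaving them out had to move this median toward 0. Of the 19, 3 were at least 1.5-fold lower (15.8%, beside 3.46% of all loci).

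*Col2a1* (chromosome 15, 97975602 to 98004724) had 35.1 FPKM in wild-type and 24.7 FPKM in *Yap* mutant lungs, a log2 ratio of -0.51. *Col11a1* had 12.6 and 9.23 FPKM (log2 ratio -0.44). *Col11a2* had 3.58 and 2.86 FPKM (log2 ratio -0.33). None of these 3 reached a 1.5-fold difference, and the ratio of *Col11a1* to *Col2a1*, 0.358 in wild-type and 0.374 in *Yap* mutant lungs, differed little.

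*Col27a1* (chromosome 4, 63214003 to 63334990) had the largest difference among the fibrillar genes that were lower, from 17.5 FPKM in wild-type to 8.99 FPKM in *Yap* mutant lungs, a log2 ratio of -0.96. *Mir455*, which lies within the gene, was listed separately over the same stretch.

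The 3 type IX chains join in a single heterotrimer. *Col9a1* (chromosome 1, 24177610 to 24252738) had 9.57 and 5.17 FPKM (log2 ratio -0.89). *Col9a2* (chromosome 4, 121039566 to 121055325) had 18.9 and 13.5 FPKM (log2 ratio -0.49). *Col9a3* (chromosome 2, 180598199 to 180642691) had 11.9 and 7.08 FPKM (log2 ratio -0.75), over a stretch that the table also gives for *Tcfl5*.

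All 3 chains were lower by unequal amounts. *Col9a1* stood at 0.505 of the FPKM of *Col9a2* in wild-type and at 0.383 in *Yap* mutant lungs, and *Col9a3* at 0.63 and 0.525. *Col9a2* kept its proportion to *Col2a1*, with 0.54 and 0.546. The single value per locus does not separate the long and short transcripts of *Col9a1*.

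Cartilage genes that encode no collagen gave a mixed picture. Of the 14 symbols of this list 12 had a locus, of which 8 had lower, 2 had higher and 2 had equal values of 0 in both genotypes. Of the 6 loci past the minimum, 4 were lower, beside 51.8% of all loci past it. By 1.5-fold or more, 2 of the 6 were lower and 0 higher, beside 3.46% and 4.61% of all loci. The summed level of the list was 69.4 FPKM in wild-type and 50.9 FPKM in *Yap* mutant lungs. The defining markers of mature cartilage were at or near 0, as *Matn1* and *Ucma* were listed at 0 and *Acan*, which encodes aggrecan, had 0.116 and 0.0446 FPKM. *Matn4*, which encodes a matrilin, had 22.8 and 10.1 FPKM and *Cytl1*, a secreted cartilage factor, 3.17 and 0.362 FPKM. *Sox9*, the master regulator of cartilage and also a distal epithelial gene, had 23.7 and 20.4 FPKM, whereas *Sox5*, its partner in cartilage, had 4.23 and 5.88 FPKM. *Hapln1* had 10.9 and 9.54 FPKM, and *Sox6* had 3.47 and 4.21 FPKM. The part of the number of cartilage progenitors in the collagen values was not tested.

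*Col24a1* (chromosome 3, 145292343 to 145552005), a fibrillar gene known from developing bone and eye, was the single member at least 1.5-fold higher. It had 1.27 FPKM in wild-type and 2.64 FPKM in *Yap* mutant lungs, a log2 ratio of 1.05. It and *Col27a1* are the nearest relatives among the fibrillar genes and differed in opposite directions, so that *Col27a1* over *Col24a1* was 13.8 in wild-type and 3.41 in *Yap* mutant lungs. The level of *Col24a1* was low in both genotypes.

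**Figure D3:**
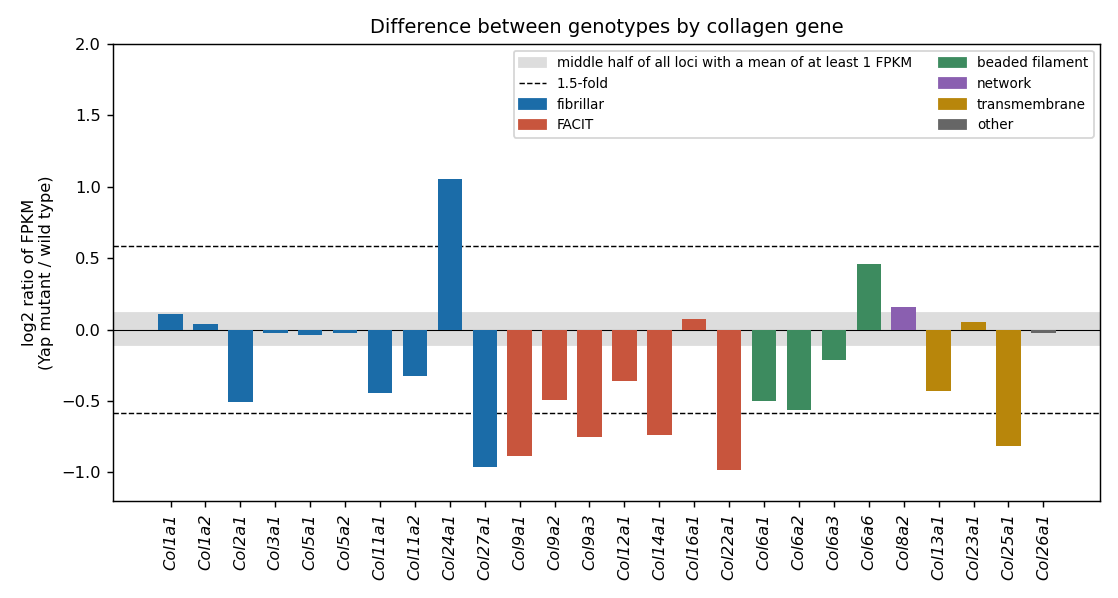
Log2 ratio of FPKM, *Yap* mutant over wild type, for the 26 collagen genes past the minimum, coloured by class, with dashed lines at a 1.5-fold difference and a grey band between the quartiles of all loci (-0.11 and 0.12). Bars of types I, III and V stay within the band, 6 bars pass the lower line and *Col24a1* passes the upper line.

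FACIT collagens were the class with the lowest median. Of 9 chains, 7 passed the minimum, 6 of these were lower and 4 were at least 1.5-fold lower, beside 51.8% and 3.46% of all loci past the minimum, and the median log2 ratio was -0.74. The class summed to 74.2 FPKM in wild-type and 53.0 FPKM in *Yap* mutant lungs, or 4.98% and 3.69% of the members' FPKM. Type IX accounts for 3 of the 7.

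Of the FACIT chains outside type IX, *Col14a1*, which binds the surface of type I fibrils, had 13.2 FPKM in wild-type and 7.91 FPKM in *Yap* mutant lungs (log2 ratio -0.74). *Col12a1*, its relative in tendon and other loaded tissue, had 4.38 and 3.41 FPKM (log2 ratio -0.36). *Col22a1*, a collagen of tissue junctions such as that of muscle and tendon, had 1.95 and 0.986 FPKM (log2 ratio -0.99). *Col22a1* had the lowest ratio of all members past the minimum, but also the lowest mean among them, 1.47 FPKM, and with 1 FPKM added to both values it was no longer 1.5-fold lower (log2 ratio -0.57).

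*Col16a1*, which links fibrils and microfibrils to cells, differed from its class, with 13.8 and 14.5 FPKM (log2 ratio 0.07). *Col19a1*, at 0.0658 and 0.0494 FPKM, and *Col20a1*, at 0.394 and 0.415 FPKM, were under the minimum. *Col19a1* lies 4.94 kb from *Col9a1* on chromosome 1, and the levels of these neighbours differed widely.

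Type VI collagen is secreted as tetramers whose monomers join the products of *Col6a1* and *Col6a2* with a longer chain. *Col6a1* (chromosome 10, 76708792 to 76726044) had 43.8 FPKM in wild-type and 31.0 FPKM in *Yap* mutant lungs (log2 ratio -0.50). *Col6a2* (chromosome 10, 76595756 to 76623404) had 52.1 and 35.2 FPKM (log2 ratio -0.56), which is just under a 1.5-fold difference. These neighbours lie 85.4 kb apart and kept their proportion, with *Col6a2* at 1.19 times *Col6a1* in wild-type and 1.14 times in *Yap* mutant lungs.

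The long chains did not follow them equally. *Col6a3*, the usual long chain, had 8.1 and 6.98 FPKM (log2 ratio -0.21). *Col6a6*, which can take its place, had 3.26 and 4.47 FPKM (log2 ratio 0.46). As a result *Col6a6* over *Col6a3* was 0.403 in wild-type and 0.641 in *Yap* mutant lungs.

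*Col6a4*, *Col6a5* and *Col6a6* form a cluster on chromosome 9, with gaps of 27.8 and 29.6 kb. *Col6a5* had 0.165 FPKM in wild-type and 0.632 FPKM in *Yap* mutant lungs, a log2 ratio of 1.94 between low values under the minimum. *Col6a4* had 0.339 and 0.321 FPKM. The cluster thus held 2 genes with higher values and 1 with nearly equal values.

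**Figure D4:**
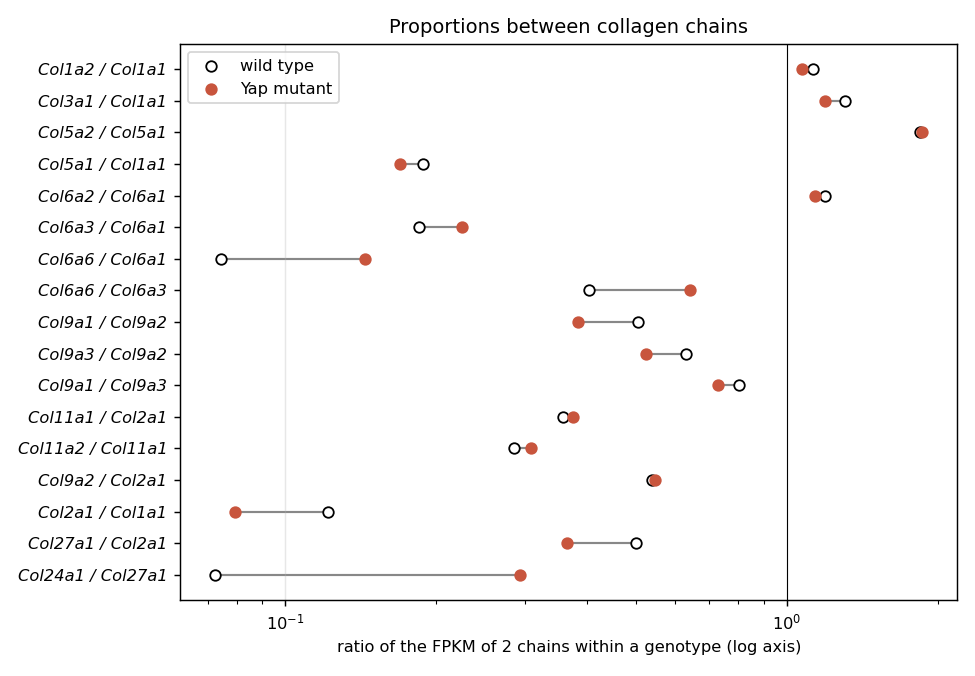
Ratio of the FPKM of 1 chain to that of another within a genotype, on a log axis, with an open circle for wild-type and a filled circle for *Yap* mutant lungs. The pairs of types I and V and *Col6a2* over *Col6a1* have nearly the same ratio in both genotypes, while *Col24a1* over *Col27a1* and *Col6a6* over *Col6a1* are higher and *Col2a1* over *Col1a1* is lower in the mutants.

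Transmembrane collagens are made by epithelial, muscle and neural cells as well as by mesenchyme. *Col13a1*, which sits at cell-matrix adhesions, had 20.5 FPKM in wild-type and 15.2 FPKM in *Yap* mutant lungs (log2 ratio -0.43). *Col25a1*, known from neurons and from the innervation of muscle, had 3.89 and 2.21 FPKM (log2 ratio -0.82) and was 1.76-fold lower. *Col23a1* had 14.9 and 15.5 FPKM (log2 ratio 0.05).

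*Col17a1*, a hemidesmosome component of basal epithelial cells, had 0.829 and 1.12 FPKM, just under the minimum. In a list of Schwann and neural genes 4 of 6 were lower, at a summed 14.6 FPKM in wild-type and 10.9 FPKM in *Yap* mutant lungs, and its neuronal gene *Tubb3* had 4.46 and 2.52 FPKM. The part of neural cells in the value of *Col25a1* was not tested.

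Network collagens form lattices around vessels and in hypertrophic cartilage. *Col8a2* had 4.58 and 5.11 FPKM (log2 ratio 0.16), and *Col8a1* had 0.348 and 0.254 FPKM. *Col10a1*, the marker of hypertrophic cartilage, was listed at 0 in wild-type and at 0.00589 FPKM in *Yap* mutant lungs, over a stretch shared with *Nt5dc1*. Of the remaining members, *Col26a1* had 49.9 and 49.1 FPKM (log2 ratio -0.02), a high level for a little-studied gene, and *Col28a1*, a collagen of peripheral nerve, had 0.0188 and 0.0118 FPKM.

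The genes that fold, trim, cross-link, bind and break down collagen were examined beside the chains. Of 73 loci in 5 lists, 57 passed the minimum, 28 with lower and 29 with higher values, and the median log2 ratio was 0.01. At least 1.5-fold lower was 1 locus (1.75%, against 3.46% of all loci), and 2 were at least 1.5-fold higher (3.51%, against 4.61%). The difference between the chains and their machinery was not tested.

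Folding and modification enzymes, which hydroxylate prolines and lysines and hold the chains until the helix has formed, were close in both genotypes. None (0) of the 23 loci past the minimum was 1.5-fold apart, beside 3.46% of all loci lower and 4.61% higher by that much. Their log2 ratios ranged from -0.25 to 0.37. *Serpinh1*, the collagen chaperone, had 599 and 558 FPKM, and *Sparc*, a collagen-binding secreted protein, had 339 and 328 FPKM. The highest ratio was that of *P4ha1*, a prolyl hydroxylase subunit.

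Genes of propeptide cleavage and cross-linking had lower values in 9 of 11 loci, beside 51.8% of all loci, with a median log2 ratio of -0.17. None (0) of the 11 was 1.5-fold apart, beside 3.46% of all loci lower and 4.61% higher by that much. *Bmp1*, the procollagen C-proteinase, had 65.4 and 58.1 FPKM, and its enhancer *Pcolce* had 51.0 and 47.2 FPKM. *Lox*, which cross-links collagen and elastin, had 52.1 and 43.5 FPKM.

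Among the small proteoglycans that coat fibrils, *Fmod* (fibromodulin), which binds type I fibrils and guides their assembly and cross-linking, had 37.9 FPKM in wild-type and 17.8 FPKM in *Yap* mutant lungs, a log2 ratio of -1.09. *Omd* (osteomodulin), of the same family, had 2.97 and 4.52 FPKM (log2 ratio 0.60). The most abundant proteoglycans were closer, *Bgn* with 76.5 and 73.0 FPKM and *Dcn* with 41.7 and 48.6 FPKM. *Fmod* was thus the single abundant fibril partner in these lists that was at least 1.5-fold lower.

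For breakdown, 0 of 11 loci past the minimum was 1.5-fold apart, beside 3.46% of all loci lower and 4.61% higher by that much. *Mmp2*, a gelatinase, had 117 and 106 FPKM, and *Mmp14*, a membrane collagenase, had 109 and 107 FPKM. Among the receptors, *Itga2*, the alpha subunit of a collagen-binding integrin, had 3.15 and 6.67 FPKM (log2 ratio 1.08), while its partner *Itgb1* had 158 and 156 FPKM. *Ddr1*, a receptor tyrosine kinase that binds fibrillar collagen, had 23.8 and 25.6 FPKM.

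**Figure D5:**
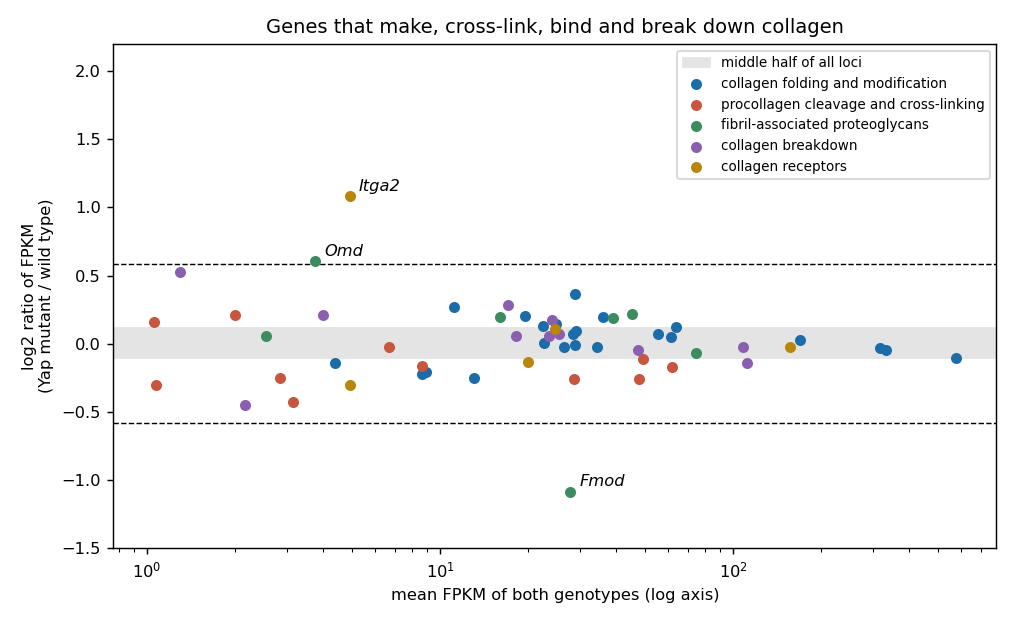
Log2 ratio of FPKM, *Yap* mutant over wild type, against mean FPKM (log axis) for the 57 loci past the minimum in 5 lists of collagen machinery genes, with dashed lines at a 1.5-fold difference and a grey band between the quartiles of all loci. *Fmod* lies below the lower line and *Itga2* and *Omd* above the upper line.

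The basement membrane collagens, which were not members, served as a comparison. Of 9 loci 6 passed the minimum, and their median log2 ratio was -0.14, beside -0.34 for the interstitial members. Of these 6, 0 was 1.5-fold apart, beside 3.46% of all loci lower and 4.61% higher by that much. With so few loci, a count of 0 says little. *Col4a1*, the most abundant, had 82.7 and 72.7 FPKM. *Col4a4*, under the minimum on average, had 1.28 and 0.248 FPKM. The difference between both sets of collagens was not tested.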

How the data were processed

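The authors aligned reads to mm10 with TopHat and compared genotypes with Cuffdiff, per the labels, on the Maverix platform. The sources used here give no versions. The authors' deposited tables list 1 FPKM value per genotype, summarised over 3 libraries. The unit was read from the Cuffdiff layout, since the header names none. The tables also hold the authors' log2 fold changes and p-values, which were not used. Log2 ratios were computed here from the FPKM without a pseudocount, for loci averaging 1 FPKM or more. No test was run here, because there is 1 value per group. Depth per library is unknown.

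The second table is the authors' selection of differentially expressed loci and was used only to check values. It holds 2395 of the 24402 loci and 17 of the 35 members. In it, 25 loci differed by over 1% from the first table, but 0 of the 17 members listed in both did. Locus starts count from 0, so 1 was added. All 35 members overlapped the RefSeq gene of that symbol. Counting was tested on simulated data. Coding regions came from GENCODE M21 and promoter windows from RefSeq.

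Every member is named, with both values where it reached 1 FPKM. Machinery genes are named when 1.5-fold apart or among the 2 most abundant of a list, and *P4ha1*, *Lox*, *Col4a4* and single marker genes were added after their values were seen. Members, classes and lists were chosen with earlier results of these data known. Alternatives were a pseudocount of 0.1 or 1 FPKM, no minimum, a minimum of 5 FPKM, a 2-fold difference, ratios relative to the median of all loci or of a mesenchyme list, and shares without single loci. Scaling to equal summed FPKM and medians without types II, IX, XI and XXVII were added after the data were seen. Python 3.11.15, numpy 2.4.6, pandas 2.3.3 and matplotlib 3.10.9 were used.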

Additional observations from a re-analysis of the deposited data

How the results depend on the processing

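No paired analysis was possible because the deposited columns hold 1 value per genotype and carry no replicate numbers, and for the same reason no library could be left out. For lack of a known spread, a median was taken as moved when it differed by at least 0.1 on the log2 scale, a share when it differed by at least 1 percentage point and a count when it differed by over 1.5 times. Of 52 alternative values for 8 results, 40 stayed within these limits. The alternatives could not test the direction of a locus well away from equality. A pseudocount or threshold cannot reverse a ratio, and the scalings moved log2 ratios little. The fibrillar median, -0.03, was near 0 under every alternative. Its sign changed in some of them, as it was 0.01 with equal summed FPKM and 0.0086 without types II, XI and XXVII. With no minimum, 3 collagen loci were at least 1.5-fold higher in place of 1, the median log2 ratio of the members was -0.21 and of the FACIT class -0.49, and 11 machinery loci were 1.5-fold apart in place of 3. With a minimum of 5 FPKM, 0 collagen loci were higher and 1 machinery locus was 1.5-fold apart, since fewer loci passed. At a 2-fold difference, 0 collagen loci were lower. A pseudocount of 1 FPKM gave a FACIT median of -0.57. Without types II, IX, XI and XXVII, the median over the members was -0.023 and that of the FACIT class -0.55. The shift of the member median followed from the choice of these chains, which were all lower. Without *Col3a1*, the fibrillar share of the members' FPKM was 75.1% in wild-type and 79.3% in *Yap* mutant lungs, in place of 81.4% and 84.7%. Scaling to the median of all loci, of the mesenchyme list or to equal summed FPKM moved log2 ratios by at most 0.06, and relative to the mesenchyme list *Col6a2* was 1.5-fold lower (-0.62). Values of a few FPKM, as for *Col22a1*, *Col24a1* and *Col25a1*, have an unknown precision.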
